A study of Mus musculus with 2 samples.

Results

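The mouse alpha-globin cluster and its neighbours were examined through every accessible region in a window of 180 kb, from 32.15 to 32.33 Mb of chromosome 11 on mm10. The members are 9 genes of this window: the neighbours Snrnp25, Rhbdf1, Mpg and Nprl3, the embryonic gene Hba-x, the adult genes Hba-a1 and Hba-a2, and the theta-like genes Hbq1b and Hbq1a. They are 9 of 21938 protein-coding genes in the annotation. The main peak list held 20 regions in the window (42 peak records) out of 24394 in all, and the 13 deposited lists together held 569 records there out of 919716.

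The assay was ATAC-seq, which reads open chromatin from where a transposase can insert adapters. The cells were primary mouse CFU-E, progenitors committed to red cells, from male C57BL/6J adults aged 5 to 6 weeks, with 50000 cells in each of 2 libraries numbered replicate 1 and replicate 2. The libraries carry no treatment or engineered allele in the labels, come from separate biosamples with a shared donor identifier and form 1 group, so no conditions were compared and no test between groups was possible. Peak sets taken to be the libraries differed by less than sets taken to be splits of their pooled reads. The libraries were therefore counted as 1 sample with no SD.

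Alpha-like globins pair with beta-like globins to form haemoglobin, and the cluster switches from the embryonic gene Hba-x to Hba-a1 and Hba-a2 during development. The adult genes are driven by erythroid enhancers named R1, R2, R3, Rm and R4, most of which lie in introns of the neighbouring gene Nprl3 and are bound by factors such as GATA1, TAL1, KLF1 and NFE2. Sites for CTCF, a protein that holds chromatin loops, flank this domain on both sides.

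Accessibility does not measure enhancer activity. Regions in Nprl3 introns or upstream of Nprl3 with AGATAA near the summit are called by those enhancers' names here, by order and spacing. They are shown first, each as the strongest summit with 100 bases on either side. Sequences are from the GRCm38.p6 assembly of RefSeq, which is the mm10 build, read 5′ to 3′ on the plus strand. Nprl3 is transcribed from the minus strand. Capitals mark AGATAA, the pair of CTG and GATA separated by 7, 8 or 9 bases, and TGANTCA, each searched on both strands. AGATAA is a form of the GATA factor site, the pair is a composite site of TAL1 and GATA1, and TGANTCA is the core of AP1 and NFE2 sites. Matches may overlap, as where AGATAA ends a pair.

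R1, Nprl3 intron 6, chr11:32245690-32245890: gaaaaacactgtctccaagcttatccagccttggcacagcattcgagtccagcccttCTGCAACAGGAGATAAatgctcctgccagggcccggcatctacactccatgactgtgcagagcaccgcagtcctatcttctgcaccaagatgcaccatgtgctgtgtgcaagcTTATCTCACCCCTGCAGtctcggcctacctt
R2, Nprl3 intron 4, chr11:32250922-32251122: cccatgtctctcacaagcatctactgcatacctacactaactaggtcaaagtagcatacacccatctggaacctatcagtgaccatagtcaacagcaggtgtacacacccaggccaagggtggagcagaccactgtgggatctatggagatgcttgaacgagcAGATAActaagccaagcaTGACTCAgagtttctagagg
R3, Nprl3 intron 2, chr11:32256214-32256414: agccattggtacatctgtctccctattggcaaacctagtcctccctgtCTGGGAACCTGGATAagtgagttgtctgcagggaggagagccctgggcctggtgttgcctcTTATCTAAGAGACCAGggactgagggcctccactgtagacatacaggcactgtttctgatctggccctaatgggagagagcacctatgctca
Rm, Nprl3 intron 1, chr11:32265175-32265375: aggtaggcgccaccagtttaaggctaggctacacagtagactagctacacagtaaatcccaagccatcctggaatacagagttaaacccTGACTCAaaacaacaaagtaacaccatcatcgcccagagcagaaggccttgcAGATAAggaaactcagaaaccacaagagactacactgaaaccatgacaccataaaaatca
R4, upstream of Nprl3, chr11:32269072-32269272: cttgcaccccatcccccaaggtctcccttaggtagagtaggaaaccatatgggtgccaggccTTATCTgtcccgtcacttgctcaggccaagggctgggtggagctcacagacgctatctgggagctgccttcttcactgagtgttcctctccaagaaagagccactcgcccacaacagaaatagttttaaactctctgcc

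Summits of the 5 regions lay 30.6, 25.4, 20.1, 11.1 and 7.23 kb upstream of the Hba-x start in GENCODE M21. AGATAA lay within 100 bp of the summit in these 5 and in no other region of the window. This word was part of how the 5 were grouped. Its presence in all 5 is therefore fixed by the grouping and is no independent check on their names. The R1 window held 2 copies, and the other windows held 1 each. Among all 24394 regions 16.6% had AGATAA near the summit, and among distal regions, with a midpoint over 1 kb from any annotated start, 27.0% did. R2 and R3 are not distal by this rule, because they lie near starts of noncoding Nprl3 transcripts. By class, 3 of the 9 distal regions of the window had the word, against that 27.0%, and 2 of the 11 promoter regions did, against 6.53%. The shorter word GATAA was near the summit in 10 of the 20 regions, against 28.6% of all and 43.8% of distal regions. The paired CTG and GATA site was near the summit in 4 regions, against 12.3% of all and 19.9% of distal regions. R1 and R3 each held 2 such pairs, and the other matches were in the regions 8.90 and 17.3 kb downstream of the Hba-x start. TGANTCA was found at R2, 84 bp from the summit, and at Rm, 8 bp from it, against 6.15% of all and 8.78% of distal regions. CCNCNCCC, a form of the KLF1 site, was near the summit in 2 regions, at the Mpg promoter and at the region farthest upstream, against 44.4% of all and 30.7% of distal regions.

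R3 was the strongest of the 5 by both measures. Its region (chr11:32255943-32256987) had a fold over local background of 11.2 in the pooled list, 10.97 in replicate 1 and 11.7 in replicate 2. R1 (chr11:32245143-32246061) had a fold of 8.37 in the pooled list, 8.05 in replicate 1 and 8.35 in replicate 2. R2 (chr11:32250683-32251470) had a fold of 8.33 in the pooled list, 8.01 in replicate 1 and 8.23 in replicate 2. The values of R1 and R2 therefore overlapped between replicates, and those of R3 stood above both in each library.

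R4 (chr11:32268425-32269599) was the widest of the 5 at 1175 bp and held 5 records. Its strongest record had a fold of 6.76 in the pooled list, 6.50 in replicate 1 and 6.68 in replicate 2, and its other records had folds between 1.94 and 2.34. Rm (chr11:32265124-32265432) was the narrowest at 309 bp, with a fold of 4.71 in the pooled list, 4.79 in replicate 1 and 4.31 in replicate 2. Rm was thus the weakest of the 5 in both libraries. The 5 regions had a median ratio of observed to expected CpG of 0.130, against 0.240 over the window and 0.404 over all regions. The last 2 values include promoter regions, and no value for distal regions alone is given here.

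**Figure D1:**
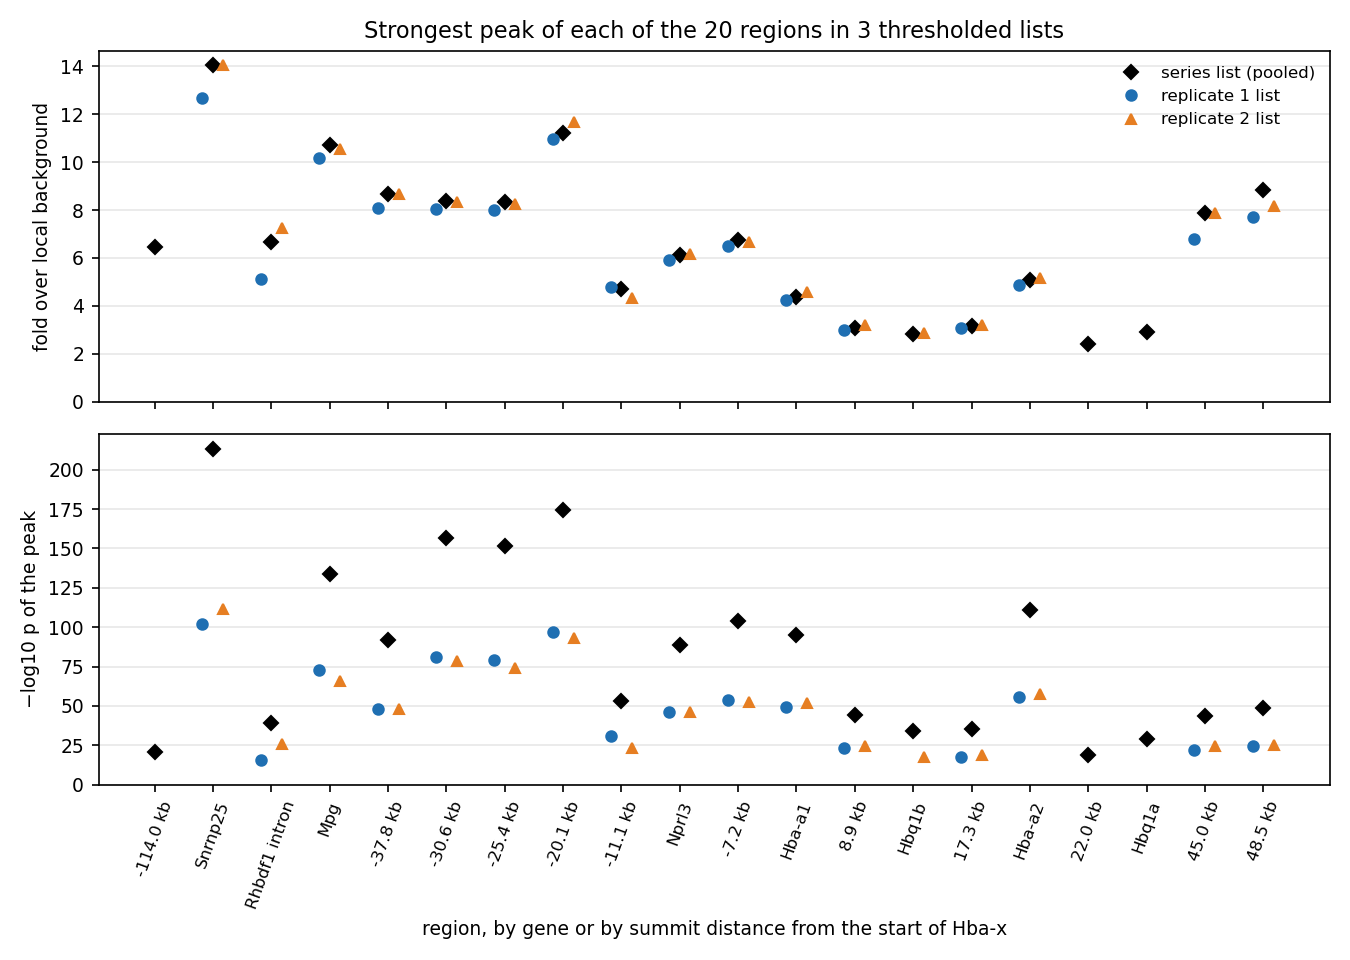
Fold over local background (top) and −log10 p (bottom) of the strongest peak in each of the 20 regions, ordered along the chromosome, in the pooled series list (black diamonds), replicate 1 (blue circles) and replicate 2 (orange triangles). Each list has its own scale of −log10 p. Regions absent from a replicate's thresholded list have no point there. The Snrnp25 promoter is the highest region by both measures, and the 7 regions at the duplicated globin genes have folds from 2.40 to 5.08.

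Nprl3 encodes a subunit of the GATOR1 complex, which restrains mTORC1. Its body, which runs on to overlap Mpg, held the midpoints of 7 regions, and 5 of these had their summit in an intron of its principal transcript. Beside R1, R2, R3 and Rm, the fifth was in intron 8 (chr11:32238443-32238935), 37.8 kb upstream of the Hba-x start. It had a fold of 8.65 in the pooled list, 8.07 in replicate 1 and 8.69 in replicate 2. The Nprl3 promoter region (chr11:32267211-32267820) had its summit 35 bp inside exon 1, with a fold of 6.13 in the pooled list, 5.93 in replicate 1 and 6.16 in replicate 2. It was separated from R4 by 604 bp.

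Of the remaining neighbours, Snrnp25 and Mpg had a region at the start of their principal transcript. Snrnp25, a protein of the minor spliceosome, had the strongest region by fold and by −log10 p (chr11:32204964-32205879), with its summit 70 bp upstream of the RefSeq start. Its fold was 14.1 in the pooled list, 12.7 in replicate 1 and 14.04 in replicate 2. Mpg, a DNA glycosylase that removes alkylated purines, had a promoter region (chr11:32226290-32227017) with a fold of 10.7 in the pooled list, 10.2 in replicate 1 and 10.6 in replicate 2. Its summit was 33 bp upstream of the Mpg start, inside the annotated body of Nprl3 beyond the end of the principal Nprl3 transcript.

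Rhbdf1, an inactive rhomboid protein that guides the protease ADAM17, had no region within 1 kb of the start of its principal transcript. A region in its intron 1 (chr11:32216754-32217260), 5.29 kb from that start, lay 310 bp from the start of a shorter annotated transcript. It had a fold of 6.67 in the pooled list, 5.13 in replicate 1 and 7.25 in replicate 2. Its ratio of replicate 2 to replicate 1 was 1.41, the highest of the window, while the middle 90% of all shared regions ran from 0.821 to 1.15.

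With any annotated start allowed, 8 of the 9 members had a region within 1 kb, against 45.8% of all protein-coding genes. With the start of the principal transcript alone, 7 of 9 did, against 43.6%. Within 500 bp of any start, 8 of 9 did, against 45.1%. The count was 6 in the thresholded list of replicate 1 (43.5% of all genes) and 7 in that of replicate 2 (42.6%). It was 8 in the conservative list (45.7%), in the overlap list of the replicates (52.3%), in that of the pseudoreplicates (52.1%) and in an older series list (68.8%). With the upper 50% of regions by fold it was 3, namely Snrnp25, Mpg and Nprl3, against 37.4%. Nprl3 counted there only through R3, R2 and the intron 8 region, which lie 52, 798 and 653 bp from starts of shorter, noncoding Nprl3 transcripts, since its own promoter region had a fold below the median. Hba-x had no promoter region in any of these lists. Nor did Il9r, a further protein-coding gene of the window that is not a member.

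Hba-x encodes the embryonic zeta-like chain. The nearest region of the main list, R4, ended 6.80 kb upstream of its start, and the nearest record in any of the 13 lists, from the older series list, was 4.36 kb away. It lay in a stretch of 13.6 kb between R4 and the Hba-a1 region that held no region of the main list. The 250 bases before the RefSeq start of Hba-x are printed beside those of Hba-a1, which had a region over all of them. GENCODE, used for the distances above, places the Hba-x start 200 bp upstream of the RefSeq one. Part of the printed Hba-x sequence therefore lies inside the GENCODE transcript. Capitals mark 3 words on either strand: the GATAA word, the CAAT box (CCAAT) and a form of the TATA box (TATAAN). Both promoters are on the plus strand of GRCm38.p6.

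Hba-x, chr11:32276350-32276599: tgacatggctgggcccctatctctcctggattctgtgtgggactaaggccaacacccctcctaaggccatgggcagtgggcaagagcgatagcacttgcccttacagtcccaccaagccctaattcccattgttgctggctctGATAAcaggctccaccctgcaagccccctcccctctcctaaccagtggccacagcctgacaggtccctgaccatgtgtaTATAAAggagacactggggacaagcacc
Hba-a1, chr11:32283422-32283671: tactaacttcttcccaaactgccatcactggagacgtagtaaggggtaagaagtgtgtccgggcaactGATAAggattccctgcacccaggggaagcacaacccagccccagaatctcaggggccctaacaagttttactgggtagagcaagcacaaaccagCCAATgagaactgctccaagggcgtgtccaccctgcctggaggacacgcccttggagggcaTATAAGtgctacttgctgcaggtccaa

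Both sequences held the GATA word and a TATA box, and Hba-a1 also held the CAAT box, which NF-Y binds. The Hba-x sequence held the KLF1 word CCNCNCCC, not capitalised above, and the Hba-a1 sequence did not. Among 32851 RefSeq windows from 250 bases before to 50 after a start, 25.4% held the GATA word, 37.4% the CAAT box, 24.8% the TATA box and 49.5% the KLF1 word. Across those windows the Hba-x and Hba-a1 sequences were 53.3% identical, and Hba-a1 and Hba-a2 were 98.0% identical. A promoter with a region and one without thus shared the GATA word, which is a description of letters and not of binding.

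Hba-a1 and Hba-a2 encode the adult alpha chain. Each had a region that spanned the gene from its promoter past its end. The Hba-a1 region (chr11:32283215-32284889, 1675 bp) was the widest of the window and had a fold of 4.37 in the pooled list, 4.24 in replicate 1 and 4.58 in replicate 2. The Hba-a2 region (chr11:32296041-32297615, 1575 bp) had a fold of 5.08 in the pooled list, 4.86 in replicate 1 and 5.17 in replicate 2. Hba-a2 was higher than Hba-a1 in each library. The strongest summits lay 128 bp upstream of the RefSeq start of Hba-a1 and 126 bp upstream of that of Hba-a2. GENCODE places the Hba-a1 start 161 bp upstream of the RefSeq one and the Hba-a2 start 3 bp upstream.

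The genes stand in copies of a duplicated stretch, and their regions came in matching pairs. The Hba-a1 and Hba-a2 regions aligned over 1584 columns with 98.0% identity. Behind each gene a further region followed, with its summit 1.62 kb after the Hba-a1 start (chr11:32285174-32285904, fold 3.08) and 1.93 kb after the Hba-a2 start (chr11:32297950-32298588, fold 2.40). These aligned over 608 columns with 82.2% identity. The one behind Hba-a1 was in the thresholded lists of both replicates (folds 3.00 and 3.21), and the one behind Hba-a2 was in neither, though the overlap lists held it (folds 2.61 and 2.36).

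Hbq1b and Hbq1a, theta-like genes, had small promoter regions with 97.0% identity over 230 columns. The Hbq1b region (chr11:32286799-32287061) had a fold of 2.84 in the pooled list and 2.86 in the thresholded list of replicate 2, and in replicate 1 the overlap and ranked lists held it, with a fold of 2.82, and the thresholded list did not. The Hbq1a region (chr11:32299929-32300158) had a fold of 2.90 in the pooled list and was in neither thresholded replicate list, with folds of 2.85 and 2.72 in their overlap lists. A single region had no partner in the main list: it lay 2.81 kb upstream of Hba-a2 (chr11:32293572-32293828), with a fold of 3.18 in the pooled list, 3.05 in replicate 1 and 3.18 in replicate 2. By distance alone, the older series list held a weak record at the parallel place, 2.83 kb upstream of Hba-a1, with a fold of 1.87. That list also held records 2.09 and 0.643 kb upstream of Hba-a1, with folds of 2.51 and 2.37.

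**Figure D2:**
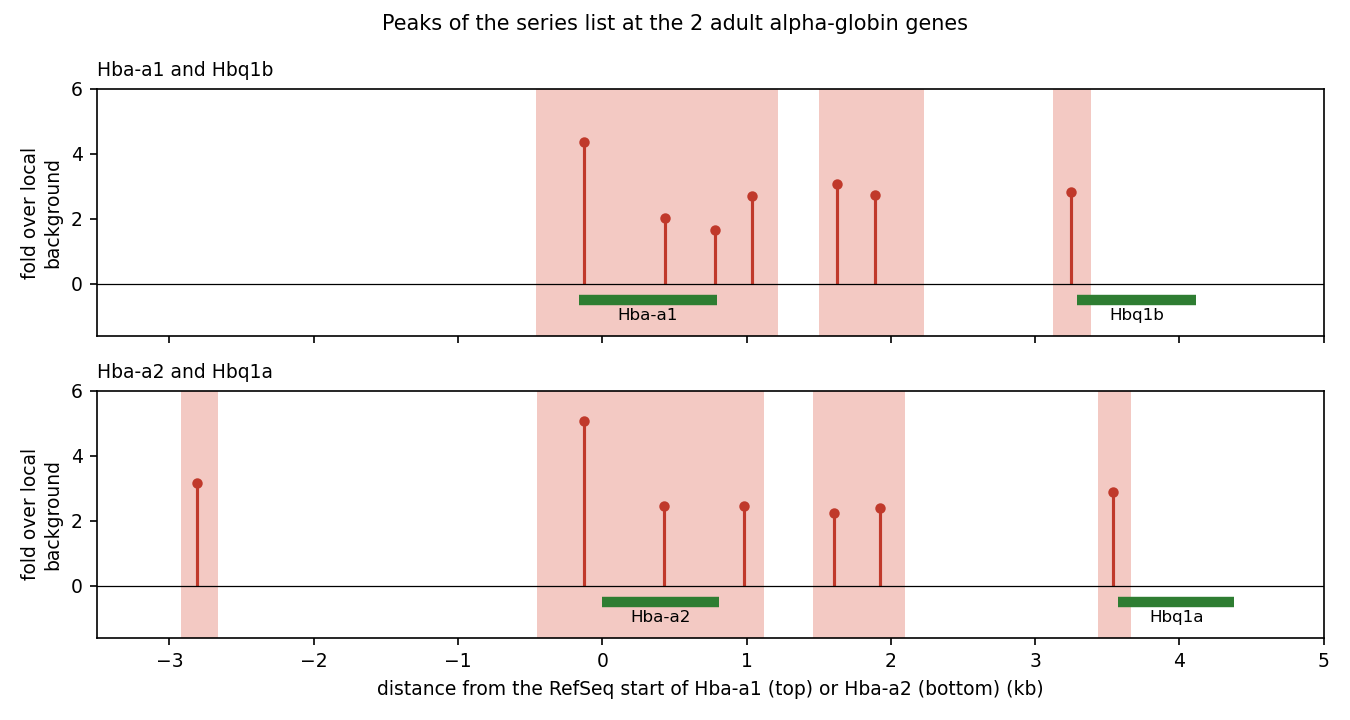
Peaks of the pooled series list around Hba-a1 (top) and Hba-a2 (bottom), as fold over local background against distance in kb from the RefSeq start. Stems mark the summits of single records, shading marks the regions and green bars mark GENCODE genes. The promoter summits, at folds of 4.37 and 5.08, and the regions behind each gene and at each theta gene stand in parallel places, and the region 2.81 kb upstream of Hba-a2 has no counterpart in this list.

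Near-identical copies limit how reads can be placed. In the Hba-a1 region 81.6% of 31-base words occurred more than once in the genome, and in the Hba-a2 region 87.4% did. The shares were 42.5% at Hbq1b and 45.5% at Hbq1a, between 2.00% and 6.61% in the 3 other regions of the duplicated stretch, 2.94% in the Rhbdf1 intron and 0% in each of the remaining regions. How the authors treated reads that fit several places is not given in the sources used here, so values at the paired genes are uncertain as measures of 1 copy. The part of this in their folds was not tested.

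The 7 regions of the duplicated stretch ranked low by fold and higher by −log10 p. Their fold percentiles among all 24394 regions ran from 0.344 to 20.8, and their −log10 p percentiles from 11.2 to 72.2. At Hba-a2 the percentile was 20.8 by fold and 72.2 by −log10 p, and at Hba-a1 it was 12.5 and 66.6. Within this stretch, the 3 regions in which few words were repeated had fold percentiles of 0.344 to 2.89. The Hbq1b and Hbq1a regions had 1.39 and 1.63. Whether repeated words bear on these ranks was not tested. Each of the 5 enhancer regions also ranked higher by −log10 p, and R3 stood at 78.8 by fold and 90.8 by −log10 p. In all, 16 of the 20 regions ranked higher by −log10 p. The 4 with the opposite order were the 2 regions beyond Hbq1a, the Rhbdf1 intron and the region farthest upstream. Fold is relative to a local background that the caller estimated, and the level of that background was not examined here.

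**Figure D3:**
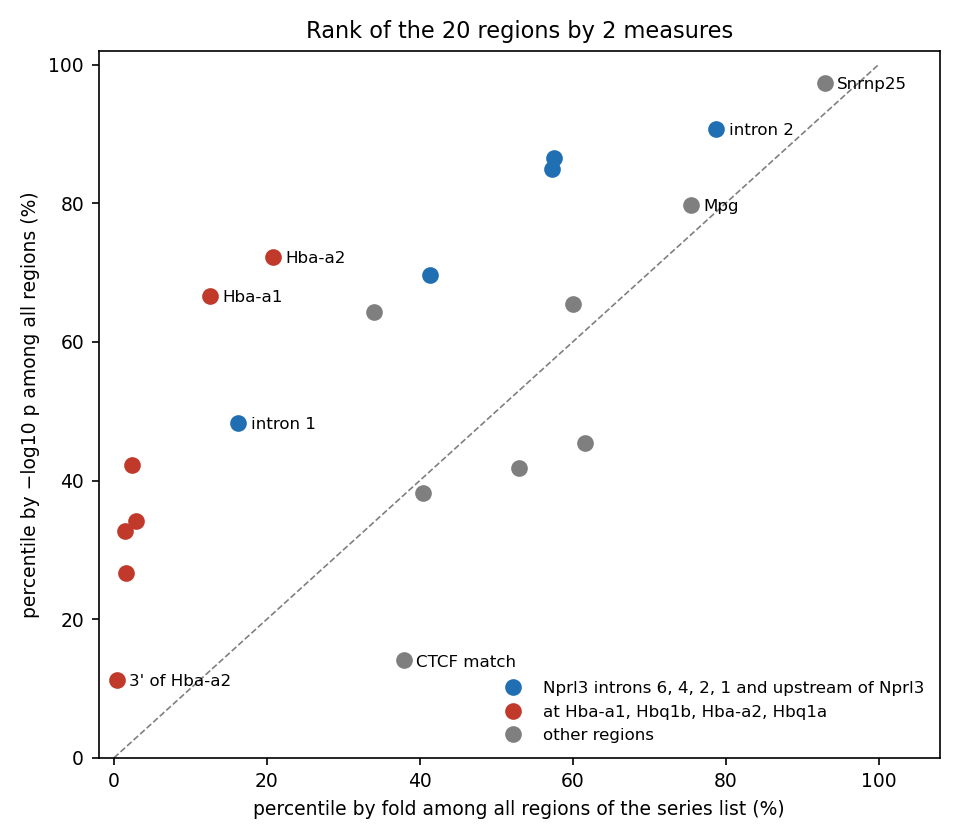
Percentile of each of the 20 regions among all regions of the series list, by fold (horizontal axis) and by −log10 p (vertical axis), with the dashed line where both are equal. Blue points are R1, R2, R3, Rm and R4, red points are the 7 regions at the duplicated globin genes and grey points are the others. All red points have fold percentiles of at most 20.8 and lie above the line.

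Ordered by −log10 p in the pooled list, Snrnp25 (213) led R3 (174), R1 (157), R2 (151), Mpg (134), Hba-a2 (111), R4 (104), Hba-a1 (94.9), the intron 8 region (91.7), the Nprl3 promoter (88.6) and Rm (53.0). The first 10 kept this order in both replicate lists. Among the 16 regions found in both replicates, 6 of the 15 neighbouring pairs in this order had replicate ranges that overlapped. These were R1 with R2 and the 5 pairs from Rm downward. The other neighbours, such as Hba-a2 (55.4 and 57.7) and R4 (53.7 and 52.2), did not overlap, although these are ranges of 2 libraries counted as 1 sample.

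At the edges of the window lay regions far from any member's start. The last 2, 45.0 kb (chr11:32320895-32321701) and 48.5 kb (chr11:32324707-32324969) downstream of the Hba-x start, had folds of 7.87 and 8.83 in the pooled list, 6.79 and 7.70 in replicate 1 and 7.89 and 8.18 in replicate 2. The first lay 21.2 kb from Hbq1a and the second 23.0 kb from Sh3pxd2b, an adaptor protein of podosomes. The region farthest upstream (chr11:32162086-32162499), 114.0 kb from Hba-x, had a fold of 6.45 and was in neither thresholded replicate list. No list of replicate 1 held it, and the overlap and ranked lists of replicate 2 did, with a fold of 6.76. It was also the 1 region of the 20 that the conservative list lacked.

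An exact match to the 12-base CTCF consensus was near 1 summit of the window, that of the region farthest upstream. Such a match was near the summit in 6.96% of all, 11.6% of distal and 2.43% of promoter regions. With 1 mismatch allowed, a choice made after the sequences were seen, 6 regions had a match. The share was 19.1% of all, 29.3% of distal and 9.20% of promoter regions. The 6 were the region farthest upstream, the Rhbdf1 intron, Nprl3 intron 8, the promoters of Hbq1b and Hbq1a, and the region 45.0 kb downstream of Hba-x. The first and last of these were distal, and the others were promoter regions when any annotated start was allowed. None of R1, R2, R3, Rm and R4 had such a match. The matches are printed with flanks, with the 12 consensus positions in capitals, each on the strand of the match.

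Upstream edge, minus strand, chr11:32162345-32162384: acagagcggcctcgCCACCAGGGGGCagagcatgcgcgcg
Rhbdf1 intron 1, plus strand, chr11:32217018-32217057: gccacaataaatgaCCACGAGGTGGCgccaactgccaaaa
Nprl3 intron 8, minus strand, chr11:32238643-32238682: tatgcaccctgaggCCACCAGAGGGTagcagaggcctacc
Hbq1b promoter, minus strand, chr11:32286920-32286959: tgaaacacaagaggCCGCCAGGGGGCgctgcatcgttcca
Hbq1a promoter, minus strand, chr11:32300025-32300064: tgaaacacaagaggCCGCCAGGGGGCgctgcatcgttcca
Downstream edge, minus strand, chr11:32321381-32321420: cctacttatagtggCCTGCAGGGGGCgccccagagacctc

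The Hbq1b and Hbq1a stretches were the same in all 40 bases. Of the 6 matches, 5 were on the minus strand and the one in Rhbdf1 was on the plus strand.

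**Figure D4:**
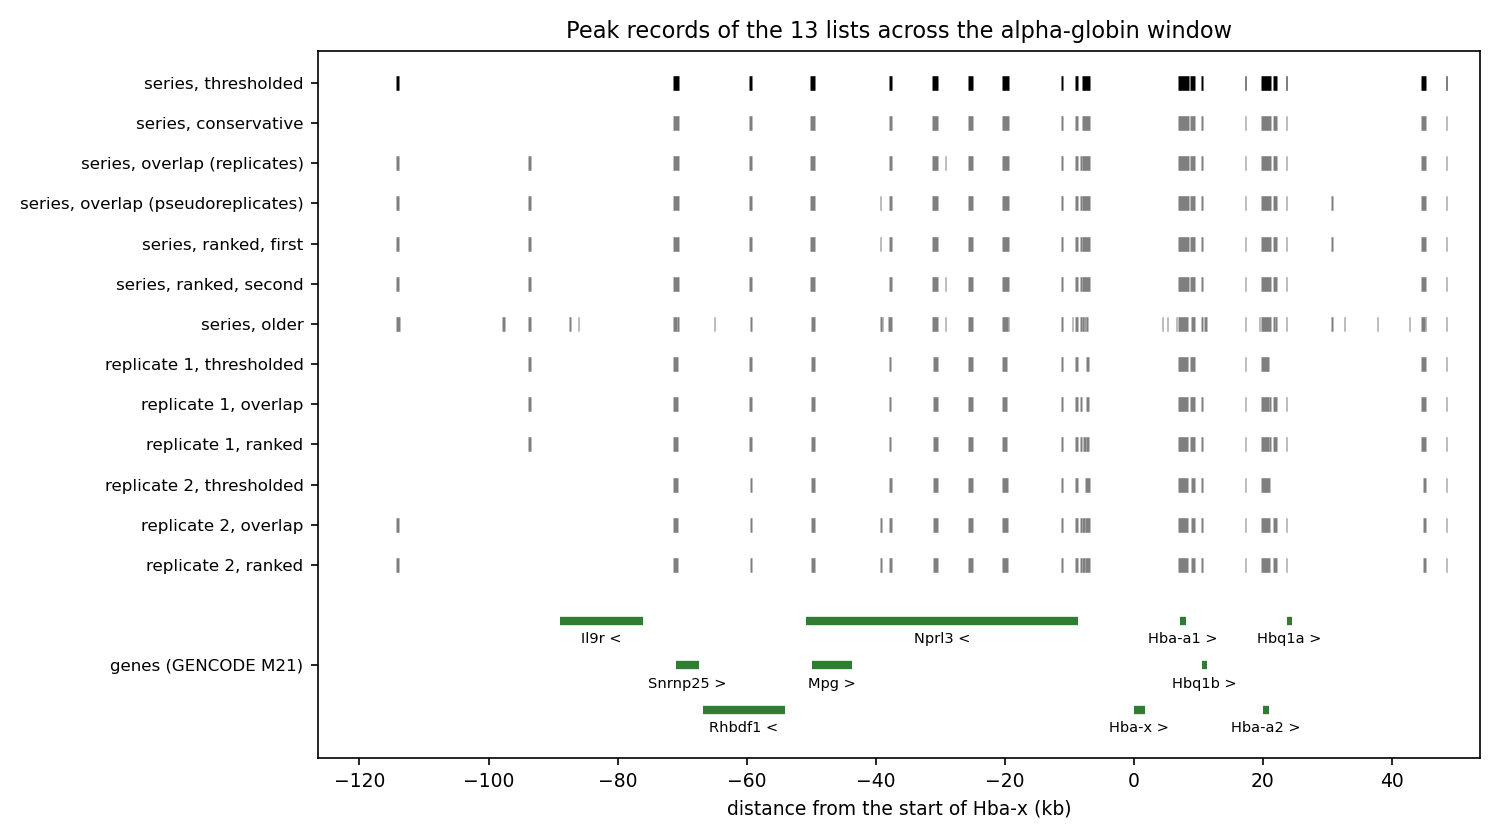
Records of the 13 peak lists (rows) across the window, by distance in kb from the GENCODE start of Hba-x, with the main list in black and genes as green bars whose arrows give the strand. The columns of records at R1, R2, R3, Rm and R4 and at Hba-a1 and Hba-a2 run through every list, and none starts within 1 kb of Hba-x.

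The 20 regions covered 14344 bp, or 7.97% of the window, against 0.596% of the assembled chromosomes. Of 15132 stretches of 180 kb laid end to end along the chromosomes, 41 (0.271%) held 20 or more regions, and the mean was 1.61. The median fold was 6.56 over the 20 regions and 7.57 over all regions, and the median −log10 p was 70.8 and 56.2. Each replicate alone had 17 regions in the window, of which 16 were shared, where the shared percentage over the whole lists was 86.5% for replicate 1 and 92.0% for replicate 2. Of the 20 main regions, 16 were in both replicate lists (65.3% of all regions) and 19 were in the conservative list (91.0% of all). The 16 shared regions had strongest summits at most 24 bp apart between the replicates, with a median of 5 bp. Their folds correlated across regions at a Spearman rho of 0.985, against 0.952 for all 15920 shared regions, and regions of a library are not independent replicates.

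Replicate 1 alone had a region at chr11:32182547-32182958, near Il9r, with a fold of 6.61, and both overlap lists of the series held an overlapping region. The series overlap lists held 3 and 4 regions outside the main ones, and the older list, with 50 regions in the window, held 21.

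A wider pathway list held the beta-globin genes with Gata1, Tal1, Klf1, Nfe2, Ldb1, Lmo2, Zfpm1, Ctcf and Atrx. Of these, Atrx had the highest promoter fold, at 16.2. Promoter regions were present in 11 of the 14 genes, against 45.8% of all genes. The 3 without one were Hbb-bh1, Hbb-y, both embryonic beta-like genes, and Hbb-bh2, which had one in the overlap list. The adult beta-globin promoters Hbb-bt and Hbb-bs had folds of 6.20 and 5.81. Promoters of genes listed as cell markers were also read. All 8 erythroid markers had a region, with folds from 4.79 to 9.36, against 45.8% of all genes. Klf1 and Gata1 were in both this list and the pathway list. None of 12 genes listed for other or earlier blood cells had one in the main list. Kit, which is not restricted to such cells, and Gata2 had one in the overlap list of the pseudoreplicates, against 52.1% of all genes.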

How the data were processed

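The 2 libraries form 1 group, so no groups were compared. The peaks, on mm10, were called by the authors for each library and for both pooled, per the deposited file listing. How the authors aligned reads, called peaks and treated multiply mapped reads and Tn5 offsets is not given in the sources used here. A peak's fold is a ratio to local background computed by the authors, p and q were deposited as −log10 values, and the deposited score ranks peaks (540 at least in the main list). IDR, the irreproducible discovery rate, measures how well peaks repeat, and the thresholded lists were made on it by the authors. The deposited summit offset gives the position of each peak's maximum. Read depth is unknown from peak lists.

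Records that overlapped or touched were merged, keeping the highest fold and −log10 p. The main list is the pooled list thresholded on IDR, beside 6 other series lists and 3 lists per replicate. In all, 4 columns of the ranked series lists were not used. Regions counted as shared when they overlapped by 1 bp. A gene counted as having a promoter region when a region overlapped 1 kb to either side of one of its starts in GENCODE M21. Counts over principal transcript starts alone were added after seeing the data. Where regions were counted by class, a distal region had its midpoint farther than 1 kb from any start. The other regions were classed as promoter regions. Motifs were counted within 100 bp of the strongest summit, and 31-base words were counted over the RefSeq genome on both strands. The libraries were compared over 47221 records at or above the threshold score in both ranked series lists. The log2 ratio of −log10 p had an SD of 0.971 between the sets taken as the 2 libraries. It was 1.04 between sets taken to be random splits of pooled reads. The sets taken as the libraries are not named as such: 76.5% and 73.0% of their records were identical to those of replicates 1 and 2. Scripts were tested on simulated data. Software was Python 3.11.15, pandas 2.3.3, Biopython 1.88 and pysam 0.24.0.

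All regions and members of the window were named, with no selection on values. The members, gene lists and rules were chosen with earlier results of these data known.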

Additional observations from a re-analysis of the deposited data

How the results depend on the processing

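The window held 20 regions, of which 9 were distal, 8 of 9 members with a promoter region and 7 regions inside Nprl3. With the upper 50% of regions by fold there were 8 regions, 3 members and 3 distal regions. With the older series list, added after seeing the data, there were 50 regions, 27 distal and 12 inside Nprl3. Leaving out a replicate left 17 regions, 6 to 7 members, 7 to 8 distal regions and 7 inside Nprl3. Motif counts over whole regions were 9 for the GATA factor word (29.1% of all regions) and 8 for its pair with CTG (21.9%). They were 7 for the KLF1 word (64.6%) and 4 for the NFE2 word (15.1%). The shorter GATA word gave 10 near summits, and CTCF with 1 mismatch, added after seeing the data, gave 6. No paired analysis was possible because the series has 1 group. Depth is unknown, so a missing region near Hba-x was not detected in these lists and is not shown to be absent.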
